A study of Columba livia and Gallus gallus with 96 samples.

Results

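Hindlimb buds of muff pigeon embryos were compared with hindlimb buds of scale pigeon embryos by RNA sequencing at Hamburger-Hamilton stage HH25 (embryonic day 4.5). The animals were domestic pigeons (Columba livia). Scale birds have bare, scaled feet, muff birds are one of the feather-footed phenotypes, and grouse is the other feather-footed phenotype of the study. The comparison used the 4 muff and the 4 scale hindlimb libraries of this stage, chosen by their labels, which are 8 of the 96 libraries of the series. Further values came from muff and scale forelimb buds at HH25, from muff and scale hindlimb buds at HH21 (embryonic day 3.5) and HH29 (embryonic day 6), and from grouse buds at HH25 and HH29. The labels gave a phenotype, a limb and a stage, but no breed, genotype or sex, and did not say how many embryos went into a library. Replicates were not stated to come from separate embryos, so p-values measure the spread between these samples only. Each library held RNA of whole buds, in which fewer cells of a type and less RNA per cell cannot be told apart.

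In vertebrates the T-box factor TBX5 is expressed in the forelimb bud and is needed for it to form, while the homeobox factor PITX1 and the T-box factor TBX4 mark the hindlimb bud, where PITX1 gives the leg its identity. Posterior mesenchyme of the bud secretes SHH and the apical ectoderm secretes FGFs, and together they drive outgrowth before cartilage, tendon and muscle differentiate. Feathered feet in domestic pigeons have been mapped to regulatory variants near PITX1 and TBX5, and the comparison asks how the hindlimb bud of the muff phenotype differs from a scaled one before feathers or scales form.

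The libraries held 11415752 to 15222075 counted reads and between 16175 and 16317 features with at least 1 read. One library stood apart within its group. Z-linked features took 2.63, 2.49 and 2.46% of the counts in muff replicates 2, 3 and 4, but 4.03% in muff replicate 1, against 4.14, 4.18, 3.96 and 3.89% in scale replicates 1 to 4. The share in muff replicate 1 thus lay among the scale libraries, and the main counts are also given without that library. Birds carry Z in a single copy in females and in a pair in males and compensate it incompletely, and the labels gave no sex. Except for muff replicate 1, Z level and phenotype cannot be told apart in these libraries.

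Values are CPM (read counts scaled to a common library size, corrected by TMM factors), and a feature was called when edgeR's quasi-likelihood test, with a term for replicates 1 and 2 against replicates 3 and 4, gave an adjusted p below 0.05. Of 13285 features tested, 605 (4.55%) were called, of which 189 (1.42%) were higher and 416 (3.13%) lower in muff hindlimbs. Without adjustment, 3081 of the 13285 features had a p below 0.05 in the same test. The median log2 fold change was 0.41 among the features called higher and -0.70 among those called lower, and it was -0.0021 over every feature tested. Among the called features, 24 rose and 85 fell by at least 1 on the log2 scale. The 4 muff libraries lay entirely on one side of the 4 scale libraries for 1140 tested features (8.58%), and for 407 of the called ones. The count depended on single libraries: it was 912 without muff replicate 1, 59 without muff replicate 2, 70 without muff replicate 3, 114 without scale replicate 1, 381 without scale replicate 2, 72 without scale replicate 3 and 53 without scale replicate 4. It was 49 with no term for the replicate groups, whose own effect was called for 1718 features. In all 8 fits that left out 1 library, 41 features were called, 10 of them higher and 31 lower, and 9 of the 41 were Z-linked.

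**Figure D1:**
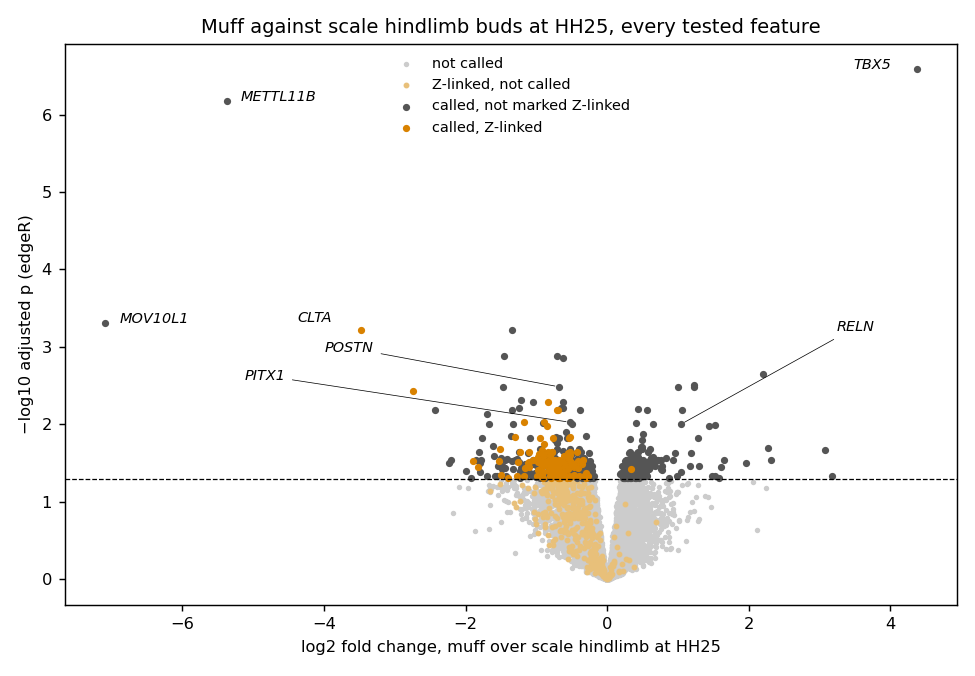
Log2 fold change of muff over scale hindlimbs (x axis) against -log10 of the adjusted p (y axis) for the 13285 features tested. Each point is a feature, Z-linked features are orange, and the dashed line marks an adjusted p of 0.05. TBX5 and METTL11B stand far above all other features, and nearly all called Z-linked features lie left of 0. The value drawn for MOV10L1 depends on the fit's prior count because muff libraries held 1 read of it in all.

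TBX5 showed the largest rise and the smallest adjusted p of all named genes. It was measured at 26.2, 23.6, 26.3 and 28.1 CPM in muff hindlimb replicates 1 to 4, against 0.943, 0.970, 1.54 and 1.52 CPM in scale hindlimb replicates 1 to 4. Every muff library lay far above every scale library, including muff replicate 1 with its scale-like Z level. The log2 fold change over scale hindlimbs was 4.38 (SE 0.147, adjusted p = 2.62e-07), and it stayed between 4.30 and 4.46 in the fits that left out 1 library. Reads of TBX5 fell into 4 features that share transcripts. The one quoted held most of them, and the 3 others held at most 13 reads in any library.

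PITX1 fell. It was measured at 214, 171, 209 and 218 CPM in muff hindlimbs, against 265, 287, 293 and 327 CPM in scale hindlimbs. The highest muff library lay below the lowest scale library. The log2 fold change was -0.53 (SE 0.0735, adjusted p = 0.00938), and PITX1 was still called in each fit that left out 1 library, with an adjusted p of at most 0.0476. PITX1 thus remained abundant in muff hindlimbs, at 203 ± 21.4 CPM against 293 ± 25.3 CPM in scale hindlimbs (SD, n = 4 each).

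Of the 8 genes on the limb identity list, 2 rose, 1 fell and 5 did not pass the test, with a median log2 fold change of 0.06. Besides TBX5, the riser was TBX15, a T-box factor of limb mesenchyme and dermis, at 138, 131, 127 and 113 CPM in muff hindlimbs, against 111, 112, 101 and 100 CPM in scale hindlimbs. Its groups did not overlap, but the log2 change was only 0.26 (SE 0.0564, adjusted p = 0.0338), and the call was kept only without muff replicate 1 or muff replicate 4 among the 8 fits. TBX4, the hindlimb T-box factor, was measured at 173, 139, 178 and 169 CPM in muff hindlimbs, against 146, 151, 156 and 166 CPM in scale hindlimbs. These ranges overlapped, and the log2 fold change of 0.09 (SE 0.0707) had an adjusted p of 0.492. The early hindlimb factor ISL1 is Z-linked, and its log2 fold change of -0.17 (SE 0.241) had an adjusted p of 0.709. The zinc finger factor SALL4 had a log2 fold change of 0.39 (adjusted p = 0.201), and the T-box factor TBX18 one of 0.04 (adjusted p = 0.746), both by edgeR's quasi-likelihood test with Benjamini-Hochberg adjustment.

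**Figure D2:**
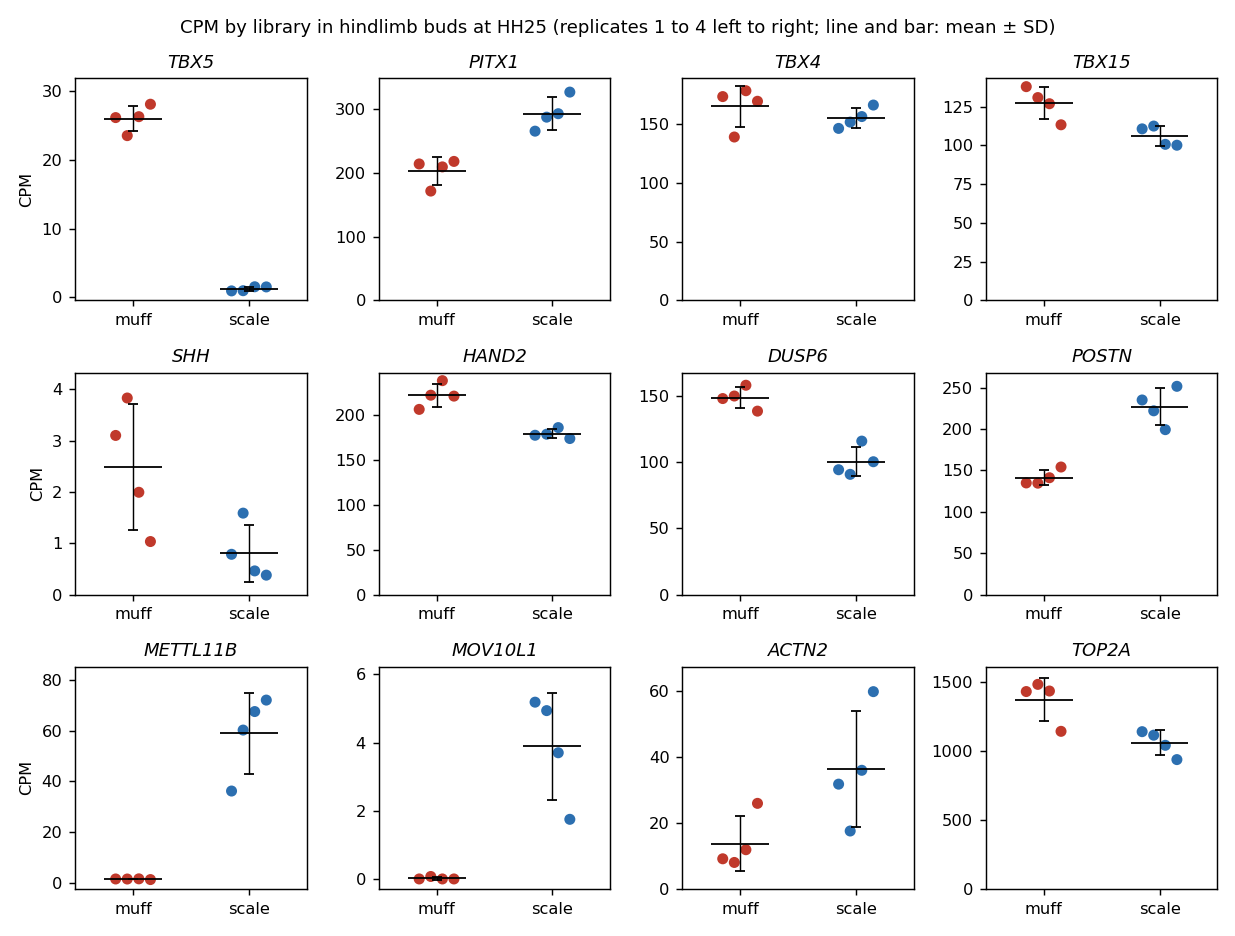
CPM (y axes, starting at or just below 0) of 12 genes in each of the 4 muff and the 4 scale hindlimb libraries. Points are replicates 1 to 4 from left to right, and lines and bars are the mean and SD. The groups are separate for TBX5, PITX1, TBX15, HAND2, DUSP6, POSTN, METTL11B, MOV10L1 and TOP2A, with 1141 CPM in the lowest muff library and 1139 CPM in the highest scale library for TOP2A, and they overlap for TBX4, SHH and ACTN2.

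The forelimb buds of the same phenotypes and stage tested whether the changes differed between limbs. TBX5 averaged 298 ± 38.3 CPM in muff forelimbs and 290 ± 56.4 CPM in scale forelimbs (SD, n = 4 each), and the log2 fold change was 0.05 (adjusted p = 0.735). The muff hindlimb level was 8.73% of the muff forelimb level, and the scale hindlimb level was 0.428% of the scale forelimb level. The change of TBX5 was 4.34 larger on the log2 scale in hindlimbs than in forelimbs (SE 0.143, adjusted p = 9.66e-12). PITX1 was higher in muff forelimbs, at 8.84, 8.03, 6.74 and 10.1 CPM, against 4.98, 3.10, 5.76 and 6.53 CPM in scale forelimbs, which is 0.72 on the log2 scale (SE 0.163, adjusted p = 0.022). Its change was therefore opposite in the limbs, and the hindlimb minus forelimb difference was -1.25 (SE 0.190, adjusted p = 0.0387). Of 13618 features tested for a limb difference, 3 (0.022%) were called, and these were PITX1 and 2 features of TBX5. This edgeR test treated forelimb and hindlimb libraries of the same number as independent, and 285 features had an unadjusted p below 0.05. With phenotype and replicate number as a block, 1092 had such a p and 4 were called. The small count therefore does not show that the other changes were equal in both limbs. In the 16 fits that left out 1 library, the TBX5 difference stayed between 4.27 and 4.40 and was called each time. The PITX1 difference stayed between -1.38 and -1.10, but it was called only without muff hindlimb replicate 1, muff forelimb replicate 3, scale forelimb replicate 2 or scale forelimb replicate 4, with an adjusted p of 0.00632 to 0.0438, against 0.0644 to 0.149 without any of the 12 other libraries. With those left out, the count was 1 or, without scale hindlimb replicate 2, 2.

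TBX5 in the hindlimb also differed at the other stages. It averaged 2.67 ± 1.24 CPM in muff hindlimbs at HH21, against 0.233 ± 0.103 CPM in scale hindlimbs, and 46.8 ± 16.1 CPM in muff hindlimbs at HH29, against 3.77 ± 0.422 CPM in scale hindlimbs (SD, n = 4 each). The log2 fold changes were 3.46 at HH21 (adjusted p = 0.00091) and 3.64 at HH29 (adjusted p = 3.06e-07), and neither differed detectably from that at HH25 (adjusted p = 0.435 against HH21 and 0.261 against HH29). PITX1 was lower at each stage as well, with log2 fold changes of -0.48 at HH21 (adjusted p = 0.00609) and -0.33 at HH29 (adjusted p = 0.0362). In grouse hindlimbs at HH25, TBX5 was measured at 0.773 to 2.03 CPM and PITX1 at 214 to 255 CPM. The grouse range of TBX5 thus spanned that of scale hindlimbs, and every grouse library lay below every muff library.

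The neighbours of both genes were read from the gene order of RefSeq's table, which was used for order only. Of 13 tested genes among the 10 on each side of TBX5, 1 was called (7.69%), against 4.55% of all features tested. This was RBM19, a ribosome biogenesis factor next to TBX5, at 116 ± 4.52 CPM in muff hindlimbs and 91.2 ± 6.15 CPM in scale hindlimbs (SD, n = 4 each, log2 fold change 0.35, SE 0.0647, adjusted p = 0.0279). TBX3, on the other side of TBX5, differed by 0.30 on the log2 scale (adjusted p = 0.161). None of 14 tested genes among the 10 on each side of PITX1 was called by edgeR. The nearest to the threshold was PCBD2, next to PITX1, at -0.35 on the log2 scale (adjusted p = 0.0607).

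The falls with the smallest adjusted p lay outside limb patterning. METTL11B, named as a methyltransferase-like protein, was measured at 1.46, 1.44, 1.52 and 1.23 CPM in muff hindlimbs, against 36.2, 60.3, 67.7 and 72.2 CPM in scale hindlimbs. The groups were far apart, and the log2 fold change was -5.38 (SE 0.212, adjusted p = 6.73e-07), with -5.33 in forelimbs. Across the wider set of libraries the scale group was not uniform: METTL11B was at 2.24 CPM in scale hindlimb replicate 3 at HH21, where the 3 others ranged from 44.4 to 84.9 CPM, and at 2.14 CPM in replicate 2 at HH29, where the 3 others ranged from 26.1 to 42.2 CPM. Grouse hindlimbs at HH25 held 0.797 to 1.93 CPM.

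MOV10L1, an RNA helicase of the piRNA pathway in mouse germ cells, had 0, 1, 0 and 0 reads in muff hindlimbs, against 66, 56, 48 and 23 reads in scale hindlimbs. The ratio of muff to scale was 0.00491, with a 95% interval of 0.000124 to 0.0277 that covers counting error only (edgeR adjusted p = 0.000497). GORAB, a Golgi protein, was at 41.6 ± 1.45 CPM in muff hindlimbs and 106 ± 17.6 CPM in scale hindlimbs (SD, n = 4 each, log2 fold change -1.34, adjusted p = 0.000596). GORAB was picked out after its values were seen, as 1 of the 41 features called in every fit that left out 1 library. PRRX1, a limb mesenchyme homeobox gene next to GORAB, had a log2 fold change of -0.27 (adjusted p = 0.0671). The gene on the other side, NTMT2, had no feature under that name. METTL11B was matched to no chromosome, so its place relative to GORAB was not read, and the count that follows does not include it. Of 15 tested genes among the 10 on each side of GORAB, 1 was called (6.67%), against 4.55% of all features tested. This was PRRC2C, an RNA-binding protein, which was higher (0.50, adjusted p = 0.0459). PRDX6, a peroxiredoxin 15 genes away, was called lower (-0.70, adjusted p = 0.00132). It lies outside the 10 genes on each side and was picked out singly, as another of the 41 features. Other genes beyond the 10 were not read, so PRDX6 does not show a change of the region.

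The 12 largest rises and the 12 largest falls among called, separate genes not marked Z-linked held few limb patterning genes. Below TBX5, the rises were PPAPDC2 (log2 fold change 2.32), MYOZ3 (1.96), CD244 (1.58), MFSD6L (1.52), CDH12 (1.52), CCDC42 (1.45), OPRD1 (1.30), BCO2 (1.23), RELN (1.05), FAM124A (1.04) and LEKR1 (1.01). BCO2, an enzyme that cleaves carotenoids, was at 15.3, 15.2, 17.3 and 16.04 CPM in muff hindlimbs, against 7.31, 8.11, 5.48 and 6.54 CPM in scale hindlimbs. RELN, a secreted matrix protein that guides neurons, was at 66.0, 49.0, 93.4 and 75.0 CPM in muff hindlimbs, against 33.1, 36.8, 32.0 and 32.8 CPM in scale hindlimbs. For both genes the lowest muff library lay above the highest scale library. After METTL11B and MOV10L1, the falls included CCDC166 (-2.44), DHX58 (-1.85), PLA2G10 (-1.80), ANO4 (-1.78), FABP7 (-1.76), OTOR (-1.70), IL17REL (-1.62), NIPAL2 (-1.59) and UPK3A (-1.54). FABP7, a fatty acid binding protein, was at 17.2, 19.3, 18.7 and 42.5 CPM in muff hindlimbs, against 99.9, 50.7, 73.6 and 102 CPM in scale hindlimbs. DHX58, a regulator of RNA sensing in antiviral defence, was at 1.64, 0.795, 4.78 and 2.72 CPM in muff hindlimbs, against 7.07, 8.997, 11.4 and 6.01 CPM in scale hindlimbs.

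All 12 rises and all 12 falls had the same sign in forelimbs. Of the 72 named genes called in hindlimbs, 69 had the same sign in forelimbs, and the exceptions were PITX1, KERA and ALX1. ALX1 had 0.99 in hindlimbs and -0.00041 in forelimbs, and KERA had -0.35 in hindlimbs and 0.13 in forelimbs. Neither limb difference was called. The share of all tested features with the same sign in both limbs was not counted. No label says what a replicate number marks, so limbs of the same number may share embryos. The forelimb signs are therefore no independent support. In all 8 fits that left out 1 library, 17 of the 72 stayed called, among them 4 of the 12 rises (TBX5, CDH12, BCO2 and LEKR1) and 4 of the 12 falls (METTL11B, MOV10L1, CCDC166 and OTOR). RELN was lost only without scale replicate 4 (adjusted p = 0.0562), and FABP7 only without muff replicate 2 (0.0623) or scale replicate 4 (0.0653).

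**Figure D3:**
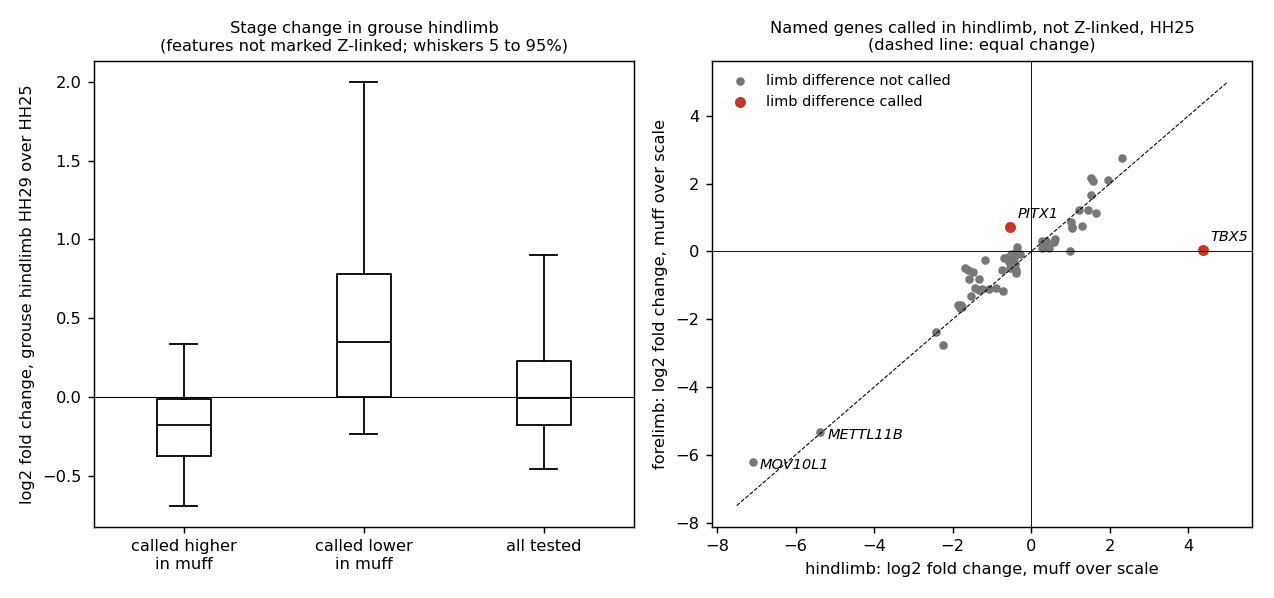
Left, log2 fold change of grouse hindlimbs at HH29 over HH25 (y axis) for features not marked Z-linked: called higher in muff, called lower in muff, and all tested, with medians of -0.17, 0.35 and -0.0059, quartile boxes, and whiskers at 5 and 95%. Right, log2 fold change of muff over scale in hindlimbs (x axis) and forelimbs (y axis) at HH25 for named genes called in hindlimbs and not marked Z-linked. Most points lie near the dashed line of equal change, and TBX5 and PITX1 (red) do not.

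Signalling genes of the bud changed little, with single exceptions. SHH, the posterior organising signal, was at 3.10, 3.83, 1.99 and 1.03 CPM in muff hindlimbs, against 0.786, 1.59, 0.463 and 0.380 CPM in scale hindlimbs, which is 16 to 53 reads in muff libraries against 5 to 18 reads in scale libraries. The ranges overlapped, and within each pair of replicates muff was higher. Its log2 fold change was 1.65 (SE 0.316, adjusted p = 0.0285). HAND2, which acts upstream of SHH in the posterior bud, was at 206, 222, 238 and 221 CPM in muff hindlimbs, against 178, 179, 186 and 174 CPM in scale hindlimbs. The groups did not overlap, and the log2 fold change was 0.31 (SE 0.0548, adjusted p = 0.0234). ALX1, a homeobox gene of the anterior proximal bud, was the 3rd called member of the posterior and hedgehog list, with 5.159 ± 1.999 CPM in muff hindlimbs and 2.681 ± 1.497 CPM in scale hindlimbs (SD, n = 4 each, log2 fold change 0.99, SE 0.240, adjusted p = 0.0462). In that list 3 of 18 tested members rose and none fell, with a median of 0.07, while 1.42% of all features tested rose and 3.13% fell. Of the 18 members, 1 is Z-linked, and without it the median was 0.12. The hedgehog targets PTCH1 (log2 fold change -0.16, adjusted p = 0.477) and GLI1 (0.14, adjusted p = 0.477) did not pass the test. No member was called without muff replicate 2, muff replicate 3, scale replicate 1, scale replicate 3 or scale replicate 4.

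DUSP6, a phosphatase induced by FGF signalling that limits ERK, rose. It was at 148, 150, 158 and 138 CPM in muff hindlimbs, against 94.2, 90.7, 116 and 100 CPM in scale hindlimbs, with no overlap. The log2 fold change was 0.57 (SE 0.0750, adjusted p = 0.00646), and the call was kept in each fit that left out 1 library. The receptor FGFR3, which marks differentiating cartilage, fell by 0.42 on the log2 scale (SE 0.0957, adjusted p = 0.0386). The call of FGFR3 was kept in 2 of the 8 fits, those without muff replicate 1 or muff replicate 4. These were the only called members of the FGF list, 1 higher and 1 lower of 19 tested, with a median of 0.0074. Over all features tested, 1.42% were called higher and 3.13% lower. The ligand FGF8 had a log2 fold change of 0.27 (adjusted p = 0.478).

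The counts in the next lists stand beside 3.13% of all features tested called lower and 1.42% called higher. Of 23 tested BMP and TGFB genes, 1 fell and none rose (median -0.12). This was FST, the secreted BMP and activin antagonist follistatin, which is Z-linked, at -0.93 (SE 0.188, adjusted p = 0.0303). Of 23 WNT genes, the ligand WNT16 fell (-1.33, SE 0.298, adjusted p = 0.0372) and none rose (median 0.03). Of 13 retinoic acid and proximal limb genes, RDH10, which makes retinal for retinoic acid synthesis, fell (-0.51, SE 0.0883, adjusted p = 0.023), and none rose (median -0.0035). Without muff replicate 1 the counts were 1 higher and 2 lower for BMP and TGFB genes, 2 lower for WNT genes and 2 in all for retinoic acid genes. Without muff replicate 4 they were 3, 2 and 2, and without scale replicate 2 the WNT count was 2. None of the 3 named calls was kept without muff replicate 2, muff replicate 3, scale replicate 1, scale replicate 3 or scale replicate 4. None of 27 HOX genes was called by edgeR, while 4 were called by DESeq2 and 1 with the replicate number as a block. Of the 27, 7 had an unadjusted p below 0.05 in edgeR, as did 3081 of all 13285 features tested. A log2 fold change above 0 was found for 21 of the 27, with a median of 0.21 over the list. The smallest adjusted p among the HOX genes was that of HOXA6, at 0.0521, with 63.2, 58.0, 47.9 and 47.5 CPM in muff hindlimbs, against 47.7, 53.9, 35.8 and 39.7 CPM in scale hindlimbs. No Notch gene of 12 was called by edgeR or DESeq2 (3 at an unadjusted p below 0.05 in edgeR).

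Some genes of muscle, cartilage and tendon fell in muff hindlimbs. The muscle list had the lowest median of the 28 lists, -0.82, with 23 of 25 tested members below 0, while 50.6% of all tested features lay below 0. Of the 25, 4 were called lower and none higher, against 3.13% lower and 1.42% higher of all features tested. The giant sarcomere protein TTN was at 24.97, 24.6, 25.3 and 31.5 CPM in muff hindlimbs, against 41.9, 31.8, 50.8 and 54.2 CPM in scale hindlimbs. The highest muff library lay just below the lowest scale library, and the log2 fold change was -0.73 (SE 0.116, adjusted p = 0.0158). The others called were ACTN2, a Z-disc actinin (-1.42, adjusted p = 0.0281), the myogenic factor MYF6 (-1.34, adjusted p = 0.03) and skeletal actin ACTA1 (-0.90, adjusted p = 0.0251). The progenitor factors PAX3 and LBX1 both had a log2 fold change of 0.04 (adjusted p = 0.891 and 0.894), and the determination factor MYOD1 had -0.42 (adjusted p = 0.223).

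Summed over the muscle list, muff hindlimbs had 631, 558, 560 and 1390 CPM, against 1233, 865, 1468 and 2007 CPM in scale hindlimbs. Muff replicate 4 lay within the scale range, the other 3 muff libraries lay below it, and muff lay below scale in each pair of libraries with the same number. Replicate 4 was the highest library in each group. With the replicate number as a block, 15 of 25 muscle members were called, and with no term for the replicate groups 0 were. Without muff replicate 4, 18 muscle members were called and the median was -1.14. The count was 6 without muff replicate 1, 0 without muff replicate 2 or scale replicate 4, and 1 without muff replicate 3, scale replicate 1 or scale replicate 3, with medians between -0.92 and -0.63 in these fits.

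Every called cartilage and tendon gene was lower in muff hindlimbs too, while 3.13% of all features tested were called lower and 1.42% higher. Of 15 tested cartilage genes, 5 fell and none rose, with a median of -0.35. They were the collagens COL9A1 (-0.38) and COL11A1 (-0.41), the proteoglycans ACAN (-1.06) and EPYC (-1.55), and the matrix protein MATN4 (-0.40). COL9A1 was at 99.4, 110, 114 and 135 CPM in muff hindlimbs, against 137, 139, 146 and 174 CPM in scale hindlimbs, and its groups did not overlap. COL2A1, the main cartilage collagen, had -0.36 (adjusted p = 0.0595), and SOX9, the chondrogenic regulator, had -0.33 (adjusted p = 0.187). Of 15 tendon and joint genes, 3 fell and none rose, with a median of -0.35. These were OSR1, a zinc finger factor of joints and connective tissue (-0.52, adjusted p = 0.0275), the joint lubricant PRG4 (-1.19, adjusted p = 0.0382) and the proteoglycan KERA (-0.35, adjusted p = 0.0459). With the block, 7 cartilage and 7 tendon members were called, and with no term for the replicate groups 0 in both lists. In both lists no member was called without muff replicate 2, muff replicate 3, scale replicate 1, scale replicate 3 or scale replicate 4, 2 cartilage members were called without scale replicate 2, and 5 tendon members were called without muff replicate 1. The cartilage median stayed between -0.44 and -0.30 and the tendon median between -0.44 and -0.27 in the fits that left out 1 library. None of 10 bone and perichondrium genes was called by edgeR or DESeq2 (1 at an unadjusted p below 0.05 in edgeR), and their median was 0.05.

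Of 35 extracellular matrix genes, 2 were called lower and none higher, against 3.13% lower and 1.42% higher of all features tested, with a median of -0.05. POSTN, a matrix protein of periosteum and tendon, was at 135, 135, 141 and 154 CPM in muff hindlimbs, against 235, 222, 199 and 251 CPM in scale hindlimbs. No library overlapped, and the log2 fold change was -0.69 (SE 0.0772, adjusted p = 0.00326). LUM, a collagen-binding proteoglycan, was at 635, 631, 530 and 552 CPM in muff hindlimbs, against 806, 765, 727 and 748 CPM in scale hindlimbs (log2 fold change -0.38, SE 0.0493, adjusted p = 0.00646). Both calls were kept in all 8 fits that left out 1 library. In the matrix list, 5 were called lower without muff replicate 1, 4 lower with no filter on low counts, 3 lower and 1 higher without muff replicate 4, and 5 lower and 1 higher with the replicate number as a block.

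**Figure D4:**
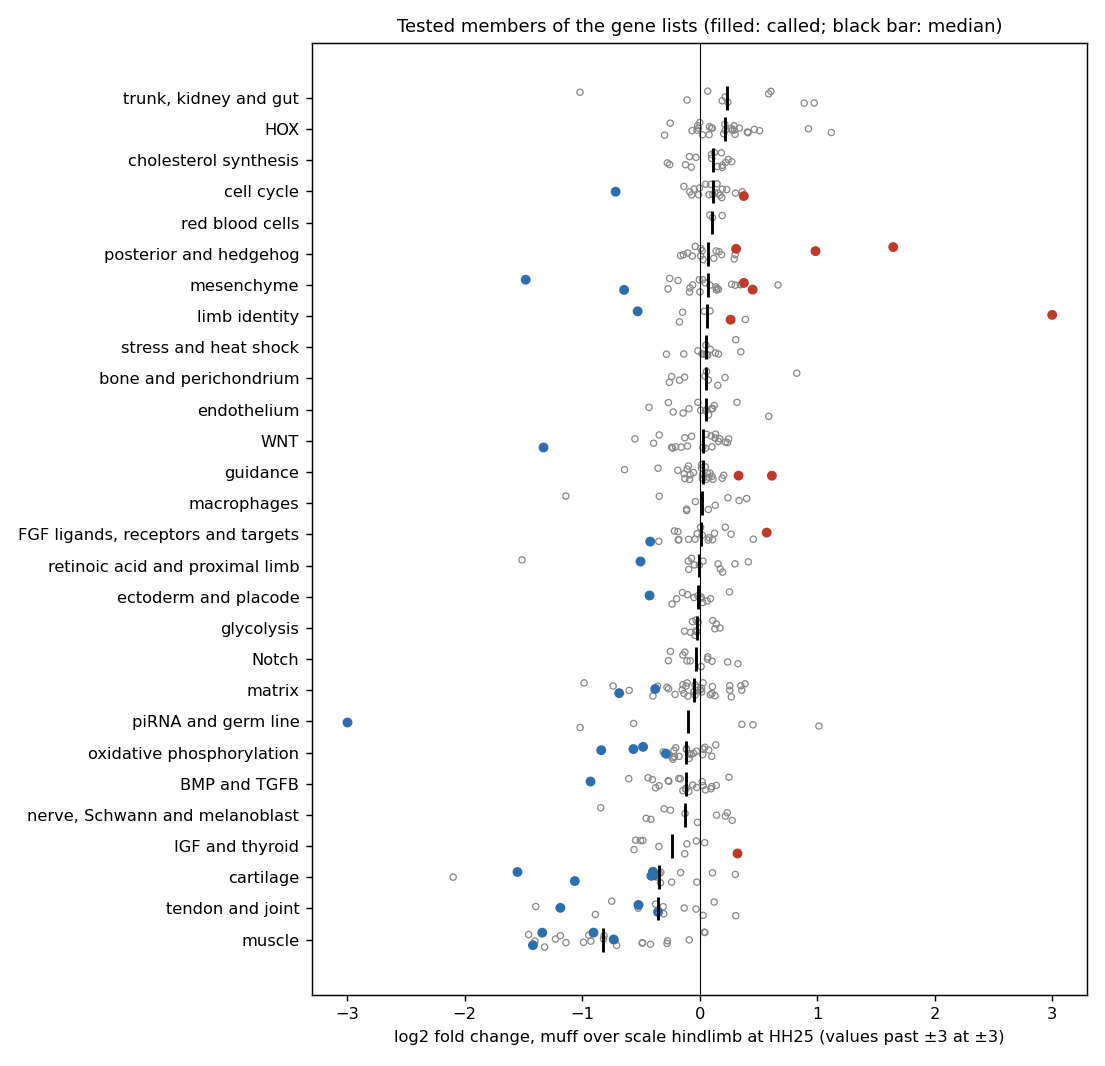
Log2 fold change of muff over scale hindlimbs (x axis) for each tested member of the 28 gene lists (rows, ordered by median). Filled points were called, red for higher and blue for lower in muff, open points were not called, and black bars are medians. The muscle, tendon and cartilage lists have the lowest medians, at -0.82, -0.35 and -0.35.

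Other mesenchymal and ectodermal genes moved singly, while 1.42% of all features tested were called higher and 3.13% lower. Of 24 mesenchyme genes, the transcription factors SALL1 (0.45, adjusted p = 0.0488) and TSHZ3 (0.38, adjusted p = 0.0459) rose and IRX1 (-1.48, adjusted p = 0.0374) and IRX2 (-0.64, adjusted p = 0.0386) fell. Of 26 guidance genes, the netrin receptor DCC (0.61, adjusted p = 0.0269) and the ephrin receptor EPHA4 (0.33, adjusted p = 0.0417) rose. DCC was at 61.8, 48.4, 60.6 and 45.7 CPM in muff hindlimbs, against 33.4, 36.9, 37.9 and 33.1 CPM in scale hindlimbs, without overlap. Of 13 ectoderm and placode genes, EDA, the ligand of the ectodysplasin pathway of skin appendages, fell, with 30.8, 23.9, 34.4 and 37.6 CPM in muff hindlimbs, against 37.8, 39.3, 47.1 and 46.4 CPM in scale hindlimbs (log2 fold change -0.44, SE 0.0919, adjusted p = 0.0326). Its groups were separate by a small margin. Its receptor EDAR had 0.06 (adjusted p = 0.925). Of 10 IGF and thyroid genes, the IGF binding protein IGFBP2 rose (0.32, adjusted p = 0.0498). In that list 2 others were called lower and none higher without muff replicate 1. Each of the named calls was lost in at least 5 of the 8 fits that left out 1 library, among them always those without muff replicate 2, muff replicate 3, scale replicate 1, scale replicate 3 and scale replicate 4.

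Of 21 cell cycle genes, TOP2A, the mitotic topoisomerase, rose (0.38, adjusted p = 0.0273) and CCNB1, a mitotic cyclin, fell (-0.72, adjusted p = 0.0405), with a median of 0.11. Among all features tested, 1.42% were called higher and 3.13% lower. TOP2A was at 1429, 1481, 1433 and 1141 CPM in muff hindlimbs, against 1139, 1113, 1040.06 and 937 CPM in scale hindlimbs. Muff lay above scale in every library for 6 of the 21 genes, while 4.03% of all tested features did so. Besides TOP2A these were MCM2, MCM3, MCM5, PCNA and BUB1, with log2 fold changes of 0.17 to 0.30 and adjusted p of 0.053 to 0.0882. Of 25 oxidative phosphorylation genes, the complex I subunits NDUFA1 (-0.56), NDUFS4 (-0.84, Z-linked), NDUFA2 (-0.48) and NDUFB5 (-0.29) fell and none rose (median -0.11). The cell cycle count ranged from 0 to 6 and the oxidative phosphorylation count from 0 to 6 in the fits that left out 1 library, with 0 in both without muff replicate 3, scale replicate 3 or scale replicate 4 and the highest count without muff replicate 4. None of 12 glycolysis, 16 cholesterol synthesis and 13 stress genes was called by edgeR or DESeq2. In edgeR, 1, 4 and 3 of them had an unadjusted p below 0.05, as did 3081 of all 13285 features tested.

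With all 8 libraries, no marker of another cell type was called by edgeR. The counts at an unadjusted p below 0.05 stand beside 3081 of all 13285 features tested. Endothelial markers summed to 547 to 639 CPM in muff hindlimbs, against 537 to 614 CPM in scale hindlimbs, with 0 of 15 called (4 at an unadjusted p below 0.05, 1 called by DESeq2). Without muff replicate 1, 1 endothelial marker was called lower, and without muff replicate 4, 1 was called higher. FLI1, nearest to the threshold among them at 0.32 (adjusted p = 0.0722), was called with the replicate number as a block (adjusted p = 0.0339). Macrophage markers summed to 78.4 to 97.2 CPM in muff hindlimbs, against 80.7 to 88.3 CPM in scale hindlimbs (0 of 10 called, 2 at an unadjusted p below 0.05, 0 by DESeq2). Nerve, Schwann cell and melanoblast markers summed to 49.2 to 54.96 CPM in muff hindlimbs, against 49.0 to 65.9 CPM in scale hindlimbs (0 of 11 called, 1 at an unadjusted p below 0.05, 0 by DESeq2). Of the nerve list, 2 were called lower without muff replicate 1, 2 without scale replicate 2, 1 without muff replicate 4 and 2 with no filter on low counts. Trunk, kidney and gut markers summed to 41.1 to 85.5 CPM in muff hindlimbs, against 40.7 to 64.4 CPM in scale hindlimbs (0 of 10 called, 3 at an unadjusted p below 0.05, 1 by DESeq2), where NKX3-2, at -1.02 (adjusted p = 0.114), was called with the block (0.0402). In the trunk list 1 marker was called lower without muff replicate 4. Red blood cell markers, of which only 3 of 19 had a feature and 0 had an unadjusted p below 0.05 or were called by DESeq2, summed to 476 to 1486 CPM in muff hindlimbs, against 483 to 1573 CPM in scale hindlimbs, and replicate 1 was the highest of both groups. In the macrophage, nerve and trunk lists 1 marker each had no read. The part of other cell types in the called changes was not tested.

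The change from HH25 to HH29 in grouse hindlimbs, measured in libraries that this comparison does not use, gave a second readout of the called features. Of 258 features not marked Z-linked and called lower in muff hindlimbs, 256 had a grouse value. Of these, 114 (44.5%) rose and 7 (2.73%) fell from HH25 to HH29 in grouse hindlimbs. Of the 186 features called higher with a grouse value, 5 (2.69%) rose and 75 (40.3%) fell. Over all 12623 features not marked Z-linked, 15.2% rose and 15.6% fell. The median log2 change with stage was 0.35 for features lower in muff and -0.17 for features higher in muff. By list, the median change from HH25 to HH29 in grouse was 2.02 for muscle, 1.27 for cartilage and 0.85 for tendon and joint genes, and -0.38 for cell cycle genes. It was 0.42 for bone and perichondrium and 0.32 for endothelial genes, whose muff over scale medians were both 0.05, and -0.15 for oxidative phosphorylation genes, whose muff over scale median was -0.11. Among features called lower, the share that rose in grouse stayed between 33.3 and 56.8% in the fits that left out 1 library. Among those called higher, the share that fell stayed between 21.1 and 43.5%. Without scale replicate 3 it was 21.1% of 19 features, and without scale replicate 4 it was 27.3% of 11 features, in both cases the same as the share that rose. The embryos' stages were given only as labels, and whether staging within HH25 differed between the groups was not tested.

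The difference between limbs in grouse buds at HH25 was read the same way, for features that differed by at least 1 on the log2 scale. Of 40 features higher in grouse hindlimbs than in grouse forelimbs, 6 were lower in muff hindlimbs than in scale hindlimbs and none was higher, with a median of -0.11. Besides PITX1 and OSR1, these were the neuropeptide receptor VIPR2 (-0.71), the homeobox gene HLX (-1.12), the adhesion molecule CNTN5 (-1.48) and the transcription factor SIM1 (-1.27). Of all 13059 features with a grouse limb value, 3.14% were called lower and 1.44% higher. SIM1 averaged 3.27 ± 1.16 CPM in muff hindlimbs and 7.91 ± 2.16 CPM in scale hindlimbs, and HLX 1.70 ± 0.255 CPM in muff hindlimbs and 3.69 ± 0.377 CPM in scale hindlimbs (SD, n = 4 each). Of 45 features higher in grouse forelimbs, TBX5 and ALX1 were higher in muff hindlimbs, and IL13RA2 and 2 features of the Z-linked gene C1QTNF3 were lower, with a median of 0.00067. Among the called features of both sets, only PITX1 and TBX5 were called in every fit that left out 1 library. The groups did not overlap for 7 hindlimb-biased features, all lower in muff, and for 4 forelimb-biased features, 2 in each direction, while over all features with a grouse limb value 4.5% lay wholly lower and 4.07% wholly higher in muff.

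Z-linked features were lower in muff hindlimbs as a class. Of 525 tested, 158 (30.1%) fell and 1 (0.19%) rose, with a median log2 fold change of -0.54. Among the 12760 features not marked Z-linked, 188 (1.47%) rose and 258 (2.02%) fell, with a median of 0.0058. These include 2284 features matched to no chromosome, of which 33 rose and 57 fell, and whether any of them lie on Z is not known. Without muff replicate 1, the Z-linked median was -0.73 and 327 fell. Between 10 and 19 fell without muff replicate 2, muff replicate 3, scale replicate 1, scale replicate 3 or scale replicate 4, and 101 and 98 without muff replicate 4 or scale replicate 2. In forelimbs at HH25 the Z-linked median was -0.47, while in hindlimbs it was 0.0063 at HH21 and 0.10 at HH29.

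**Figure D5:**
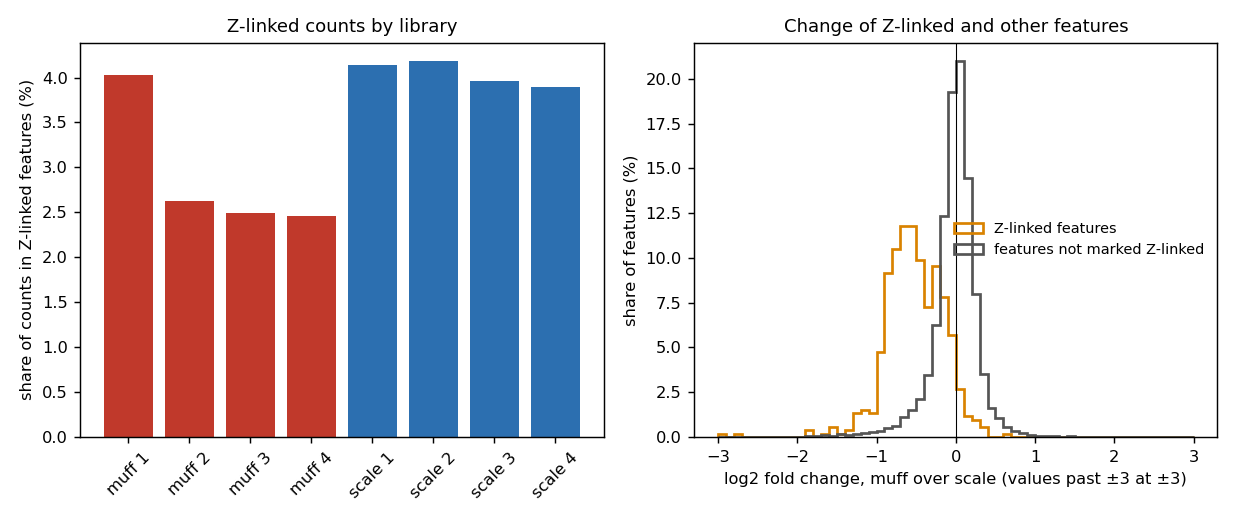
Left, share of counts in Z-linked features (y axis, %) in each muff and scale hindlimb library. Right, distribution of the log2 fold change of muff over scale (x axis) for 525 Z-linked and 12760 other features (y axis, % of features). Muff replicate 1, at 4.03%, stands with the scale libraries, and the Z-linked distribution is shifted to values below 0.

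The quoted features of the Z-linked genes CLTA and LVRN were low in muff replicate 1 too. For CLTA, the clathrin light chain, 1 of its 3 features was at 0.258, 0.217, 0.159 and 0.129 CPM in muff hindlimbs, against 2.44, 2.65, 1.77 and 1.90 CPM in scale hindlimbs (log2 fold change -3.47, SE 0.294, adjusted p = 0.000596). This feature held only 2 to 3 reads in muff libraries and 23 to 31 reads in scale libraries. The other features of CLTA are not given, so its values do not stand for the whole gene. Muff replicate 1 was the highest muff library for this CLTA feature but lay below every scale library. The aminopeptidase LVRN (-2.75) and the nucleotide sugar transporter SLC35D2 (-0.70) were also called in each fit that left out 1 library, although SLC35D2 was at 31.9 CPM in muff replicate 1, close to the lowest scale library at 32.7 CPM. NDUFS4, by contrast, was at 70.4 CPM in muff replicate 1 and 39.1 to 43.0 CPM in the other muff libraries, against 79.0 to 97.1 CPM in scale hindlimbs. The 1 Z-linked riser was ME2, a mitochondrial malic enzyme (0.34, adjusted p = 0.0378), whose call was kept only without muff replicate 1.

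The muff minus scale change at HH25 was tested against that at the other stages. Over Z-linked features, the median of this change was -0.54 at HH25, 0.10 at HH29 and 0.0063 at HH21, so Z level enters both tests. How many of the features called in them were Z-linked was not counted. Against HH29, 176 of 13927 features differed (1.26%), 66 with a higher and 110 with a lower change at HH25, and 51 of them were also called at HH25. The change of RELN was 1.05 at HH25 and -0.01 at HH29 on the log2 scale (difference 1.06, adjusted p = 0.0349), and the neurturin receptor GFRA2 had -1.25 at HH25 and 0.40 at HH29 (difference -1.65, adjusted p = 0.00673). The muscle genes ACTA1, ACTN2 and MYF6 had log2 fold changes of 0.23, 0.11 and 0.40 at HH29, and HAND2 had -0.39. For these 4 genes as well the stage difference was called. NDC80, a kinetochore protein with a called difference, was itself no longer called at HH25 with the replicate number as a block (adjusted p = 0.0541, against 0.0446 without it). The count was 354 with the block, 274 without muff replicate 1 at HH25 and 347 without muff replicate 4 at HH25. It was 3 to 110 without any one of muff replicates 2 and 3 and scale replicates 1, 3 and 4 at HH25, muff replicates 1 and 3 at HH29, and scale replicates 1 to 4 at HH29. Against HH21, 1 of 13648 features differed (0.00733%), SAMD11, with 0.33 at HH25 and -0.53 at HH21, and 10 differed with the block. That count was 81 without muff replicate 1, 173 without muff replicate 4 and 9 without scale replicate 2 at HH25. It was 68 without muff replicate 3, 3 without scale replicate 1, 25 without scale replicate 2 and 141 without scale replicate 4 at HH21. It was 0 without scale replicate 1 or 4 at HH25 or muff replicate 1 or 2 at HH21. In the edgeR test against HH21, 2790 of the 13648 features had an unadjusted p below 0.05. The small count therefore does not show that the changes were equal at HH21 and HH25.

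The authors' deposited table of this comparison holds 14222 features with an adjusted p. There, 1585 features were below 0.05, 818 of them higher and 767 lower in muff, taking its direction from the sign of TBX5. Of these, 461 were also called here in the same direction. The authors' deposited table gives TBX5 a log2 fold change of 2.55, PITX1 -0.46, TBX15 0.29 and SHH 0.34, the last with an adjusted p of 0.051. These log2 fold changes are on a scale that looks shrunken, so their sizes cannot be set against those given above.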

How the data were processed

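For each library the authors deposited raw read counts per feature, as whole numbers. The submitters' processing notes name FastQC, STAR, featureCounts and DESeq2, while tool versions, the genome build and its annotation were not given there. Per the labels' protocols, libraries were stranded, made with oligo(dT) selection and sequenced in paired ends. The deposited comparison tables hold a mean normalised signal, a log2 fold change, its standard error and test score, and p-values, all computed by the authors. Names came from one such table, and genes were marked as Z-linked from RefSeq's table of assembly bColLiv1.pat.W.v2 (17438 of 21379 features matched, 849 of them on Z), from which no coordinates were taken.

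Features were kept by edgeR's filterByExpr, scaled by TMM and tested with edgeR 4.0.16's quasi-likelihood test in R 4.3.3, with Benjamini-Hochberg adjustment over all tested features and a threshold of 0.05. The main design has phenotype and a term for replicates 1 and 2 against 3 and 4. Limb and stage differences are interaction terms in 16-library fits, with a CPM scaling over all pigeon libraries used for levels in other groups. The scripts were tested on simulated data. Alternatives were no term, replicate number as a block, DESeq2 1.42.0, RLE scaling, no filter, summed gene names, either pair of replicates, all 24 pigeon libraries of the stage, a Z covariate, Z-linked features left out, and leaving out each library. Deviations from group means correlated between same-numbered muff and scale libraries (r = 0.147, 0.361, 0.145 and 0.42). All were above 0.1, so the numbers were taken to pair them, although no label says what a number marks. Muff 2 with scale 1 (0.225) and muff 4 with scale 3 (0.248) correlated more than the same-numbered pairs 1 and 3. The deviations kept the effect of replicates 1 and 2 against 3 and 4, so this check cannot show pairing by number. Replicates of a group differed beyond sampling noise (chi-square per degree of freedom 4.57 to 20.7). No other columns of per-sample values were present. Named genes are the limb identity list, the 12 largest rises and falls among called, separate genes not marked Z-linked with at least 1 CPM, up to 4 called members of each other list (or the member with the smallest p), 4 Z-linked genes each way, and up to 8 called in each difference test. The values of a few named genes are not reported here. The members and the 28 gene lists were chosen with earlier results of these data known. Total counts of 11415752 to 15222075 per library set the precision, and intervals cover counting error only.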

Additional observations from a re-analysis of the deposited data

Results flagged for a closer look

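In a group of 4, chance sets a library apart this way in about 1 of 20 groups. The same check was run on each of the 88 named genes in both groups, so most of the gene flags below could arise by chance. Muff hindlimb replicate 1 stood far from the other 3 in Z-linked level, with a mean log2 CPM of 4.69 over Z-linked features and 4.03% of counts, and also in NDUFS4 (70.4 CPM), CD244 (11.5 CPM) and ENO1 (1900.3 CPM). Muff replicate 4 stood apart in FABP7 (42.5 CPM), TTN (31.5 CPM), TOP2A (1141 CPM), ST8SIA2 (421 CPM) and MARCO (0.970 CPM), and muff replicate 2 in MOV10L1 (0.0722 CPM, 1 read). Scale replicate 4 stood apart in RDH10 (44.2 CPM) and ME2 (64.7 CPM), and scale replicate 2 in its total of 11415752 counts.

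The muff minus scale change differed between hindlimb and forelimb by 4.34 for TBX5 and by -1.25 for PITX1 on the log2 scale, and between HH25 and HH21 by 0.87 for SAMD11. Between HH25 and HH29 it differed by interaction tests for 20 of the 88 named genes, against 1.26% of all features tested. Of the 88, 72 were called at HH25, and up to 8 were named because this same test called them. The count of 20 therefore follows in part from how the genes were chosen. The change was lower at HH25 for IBSP (-3.37), LVRN (-3.19, Z-linked), OTOR (-2.03), IRX1 (-1.90), MYF6 (-1.74), GFRA2 (-1.65), IL17REL (-1.61), ACTN2 (-1.53), FABP7 (-1.38), ACTA1 (-1.13), TMEM109 (-0.90) and EDA (-0.69). It was higher at HH25 for OPRD1 (2.23), CDH12 (1.46), RELN (1.06), HAND2 (0.70), TOP2A (0.59), ST8SIA2 (0.55), CENPI (0.52) and NDC80 (0.50).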

How the results depend on the processing

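Against 605 features called at HH25, 49 were called with no term for the replicate groups, 1119 by DESeq2 (594 of the 605 among them), 19 with replicates 1 and 2 only, 396 with replicates 3 and 4 only, 1475 in a fit of all 24 pigeon libraries of the stage (513 shared), 2 with a Z covariate (TBX5 and METTL11B) and 391 without Z-linked features. The count was 614 with RLE scaling, 591 summed over gene names and 854 with no filter. Leaving out 1 library gave 53 to 912. With the numbers taken to pair the libraries and the replicate number as a block, 801 features were called (541 shared). The block changed the calls of NDC80, FLI1 and NKX3-2 among the 88 named genes and no other. No called named gene turned round under any alternative, and all 88 kept their side of the threshold with RLE scaling and summed names, but 54 lost the call with no term and 70 with the Z covariate. The limb difference count of 3 was 1 with no term, 4 with the block, 2 by DESeq2 and 1 to 2 with a library left out. For the PITX1 limb difference, the adjusted p was 0.00274 with the block in edgeR, 2.35e-08 by DESeq2 and 0.163 with no term in edgeR. The difference against HH21 (1 feature) was 0 with no term, 10 with the block, 709 by DESeq2, 90 with no filter and 0 to 173 with a library left out. The difference against HH29 (176) was 1 with no term, 354 with the block, 590 by DESeq2 and 3 to 347 with a library left out. In the Z covariate fit, Z level differs from phenotype in muff replicate 1 alone. The cause of these changes was not tested. Depth limits low genes such as SHH, with 5 to 53 reads a library.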
